A study of Homo sapiens with 8 samples.

Results

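The peaks of RBFOX2 eCLIP in 10 genes of the glycolytic pathway were examined: GPI, PFKL, PFKM, PFKP, ALDOA, TPI1, GAPDH, PGK1, ENO1 and PKM. A peak was a member when its midpoint lay in the RefSeq span of one of these genes, on the strand of that gene. By this rule 271, 303, 300 and 289 peaks of replicates 1 to 4 were members, out of 267691, 281701, 288305 and 280619 called peaks in the lists. Their values come from 4 immunoprecipitation (IP) libraries of HEK293T, an established line derived from human embryonic kidney, each set by the authors against the input of the same number. The labels name no genetic change or drug for either group, and all cells received ultraviolet light of 254 nm at a dose of 400 mJ per square centimetre. The input was 2% of the sample, and no knockout or control antibody was used here. Nothing in the labels says that the replicates came from separate cultures, so the spread between them may be technical.

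Glycolysis converts glucose to pyruvate. GPI turns glucose 6-phosphate into fructose 6-phosphate, and phosphofructokinase, made as the isozymes PFKL, PFKM and PFKP, commits the sugar to the pathway. ALDOA splits the product, TPI1 interconverts the resulting triose phosphates, and GAPDH, PGK1, ENO1 and PKM carry them on to pyruvate. RBFOX2 is a splicing regulator that binds GCAUG-type sequences, mostly in introns beside alternative exons. PKM is a textbook case of alternative splicing, since its M1 and M2 forms come from a pair of mutually exclusive exons. In eCLIP, ultraviolet light joins a protein to the RNA it touches, and the RNA pulled down with the protein is sequenced next to an input library. Sequences under the peaks are not shown, because no genome was used here.

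Each peak carries the authors' log2 fold of IP over input and a −log10 p. A peak was called enriched when both were at least 3. This held for 0.861%, 0.848%, 0.789% and 0.775% of all called peaks in replicates 1 to 4. Read depth per peak is unknown here, so no counting interval is given.

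Enriched peaks fell in 5 of the 10 genes, PFKP, GPI, PKM, PFKL and ENO1, and each of these had at least 1 in all 4 replicates. The other genes, PFKM, ALDOA, TPI1, GAPDH and PGK1, had none in any replicate. The 10 genes held 44, 47, 46 and 53 enriched peaks in replicates 1 to 4, or 47.5 ± 3.87 (SD, n = 4), which is 16.4% ± 1.38 of their called peaks. Of all genes with a called peak in each replicate, 6.12% had an enriched peak in at least 2 replicates and 2.99% in all 4. The set counts as chosen by the log2 fold and −log10 p of these same peaks, which were known when it was proposed, so these figures are a description without a test. Of the 190 enriched peaks summed over the lists, 53.2% lay in PFKP and 27.4% in GPI.

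The share of called peaks that were enriched was 48.4% ± 4.95 in PFKP, 19.7% ± 2.49 in GPI, 12.8% ± 4.50 in PKM, 10.5% ± 4.95 in PFKL and 3.88% ± 0.460 in ENO1 (SD, n = 4 for each). PFKP stood above GPI in each replicate without overlap, since its lowest share was 42.0% and the highest of GPI was 22.2%. The replicate ranges of GPI and PKM overlapped, and so did those of PKM and PFKL. ENO1 lay below PFKL in each list, and above the genes at 0. Scaled by the length of the span, the order changed little, with 0.365 enriched peaks per kb and replicate in PFKP, 0.304 in GPI, 0.161 in PKM, 0.110 in PFKL and 0.0565 in ENO1. Among the 5256 genes with at least 10 called peaks in each replicate, 4438 had no enriched peak. By the mean share, PFKP took rank 13, GPI rank 58, PKM rank 96, PFKL rank 111 and ENO1 rank 266.

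**Figure D1:**
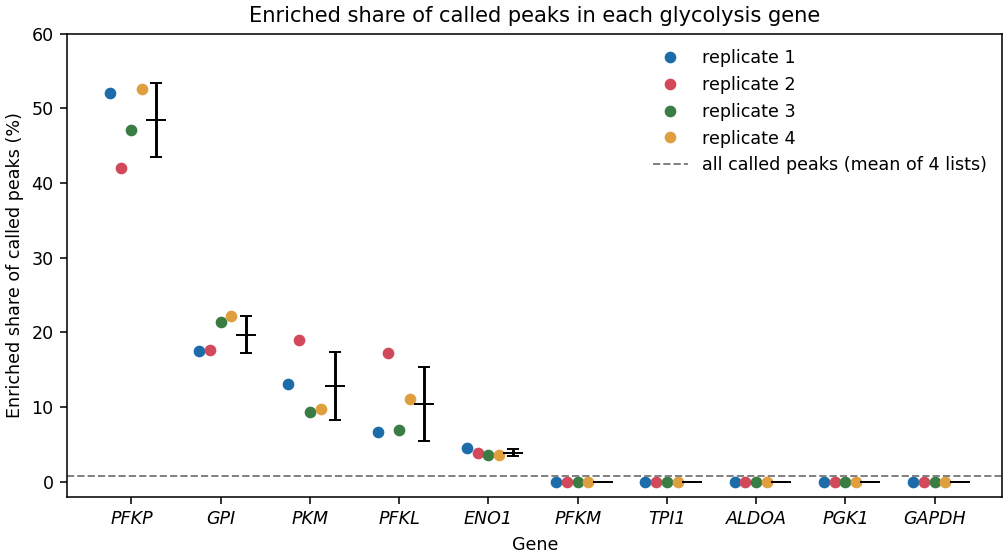
The plot shows the share of called peaks that were enriched (y axis, percent) in each of the 10 genes (x axis), with a coloured point per replicate and the mean with its SD (n = 4) in black. PFKP lies between 42.0% and 52.5%, 5 genes lie at 0, and the dashed line marks the mean over all called peaks of the lists, 0.818%.

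GPI, on the plus strand of chromosome 19 from 34359718 to 34402413, had 63, 68, 70 and 63 called peaks and 11, 12, 15 and 14 enriched ones. They were concentrated in a single stretch. Of the 52 enriched peaks summed over the lists, 47 had their midpoint within 2000 nt, a stretch that covers 4.68% of the span. This window was placed where it held the most enriched peaks. Inside it 73.4% of called peaks were enriched, against 2.50% in the rest of the gene.

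The enriched peaks of the replicates merged there into a region at chr19:34389149-34390365, whose centre lies 30040 nt from the 5′ end of the span. The peak with the highest −log10 p in this region had a log2 fold of 6.72, 5.83, 4.93 and 6.63 in replicates 1 to 4 (mean 6.03 ± 0.83, SD, n = 4). On a linear scale the mean is 65.2-fold over input. The −log10 p of these peaks was 89.0, 59.4, 54.8 and 83.4, and the 4 peaks shared the 156 nt at chr19:34389600-34389755. Replicate 3 was lowest by fold, and its highest fold in the region, 6.66, belonged to a shorter neighbouring peak at chr19:34389425-34389513. The peaks with most overlap there in replicates 1, 2 and 4 had log2 folds of 4.36, 4.19 and 4.07. Averaged over all its peaks by length, the region stood at 4.40 ± 0.25 (SD, n = 4).

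Within the region 9 of 10, 10 of 12, 12 of 14 and 11 of 13 called peaks were enriched, and the lowest log2 folds were 2.41, 2.70, 2.43 and 2.50. All called peaks of the region thus lay above input. Lower folds above input reached further 5′. A run was extended from the strongest region over neighbouring merged regions called in each replicate, while their mean log2 fold was at least 1. This limit sets where the run ends. It took in 12 regions over chr19:34382604-34390566, with means between 1.35 and 6.03, and all 12 were above 0 in each replicate. The first of these 12 stood at 0.000771 in replicate 3, which is the median of that list. Upstream of this run, 6 regions lay between −1.39 and −0.04. Downstream, 14 regions lay between −1.77 and 1.62, with a median of 0.14.

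**Figure D2:**
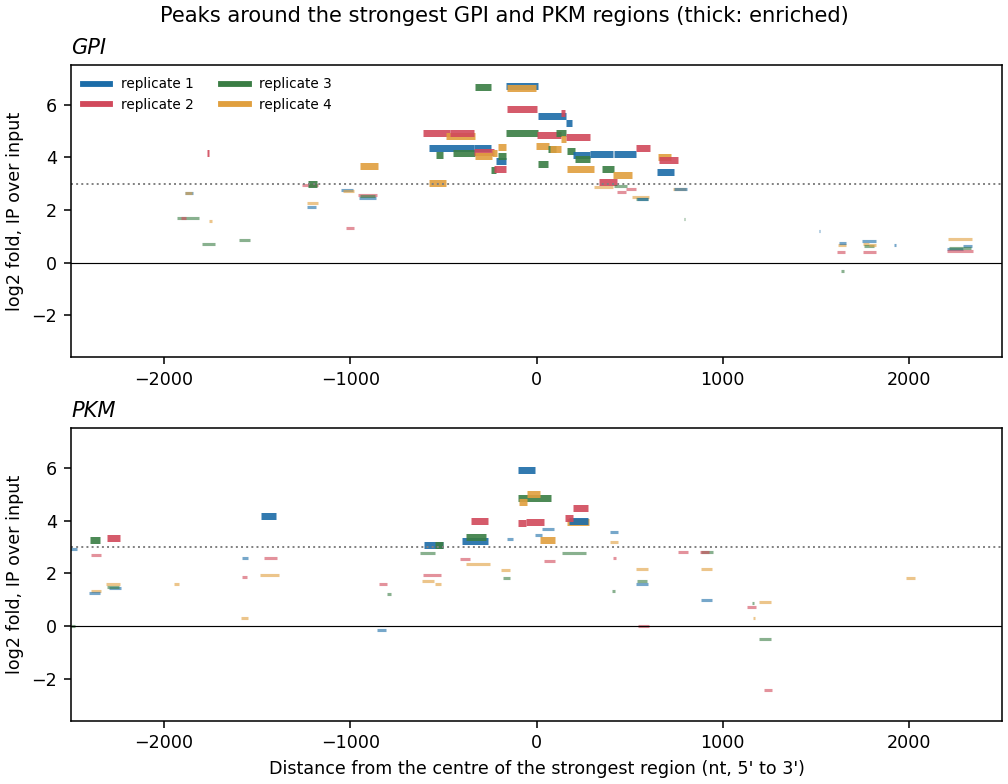
Each bar is a called peak, drawn at its log2 fold over input (y axis) and its distance in nt from the centre of the strongest region of GPI (top) or PKM (bottom), with a colour per replicate and thick bars for enriched peaks. In GPI all 4 replicates hold mostly enriched peaks within the 1217 nt of the merged region, and these top between 5.83 and 6.72. The PKM peaks are fewer and top between 4.46 and 5.91.

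The phosphofructokinase genes differed from each other. PFKP, the platelet-type isozyme, had the most enriched peaks of the 10 genes. PFKL, the liver-type isozyme, had few, although nearly all of its peaks lay above input. PFKM, the muscle-type isozyme, had none.

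PFKP lies on the plus strand of chromosome 10 from 3067548 to 3136805 and had 48, 50, 51 and 59 called peaks, of which 25, 21, 24 and 31 were enriched. Its median log2 fold over all called peaks was 3.58, 2.95, 3.05 and 3.32, against medians between −0.000866 and 0.00141 for the whole lists. By the mean of this median PFKP took rank 11 of the 5256 genes. The enriched peaks merged into 31 regions in separate groups, with 4 regions at chr10:3084586-3086053 and 27 at chr10:3121225-3129802. No enriched peak lay between the groups.

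Of the PFKP regions, 6 were enriched in all 4 replicates, 1 in the upstream group and 5 in the downstream one. The upstream region, chr10:3084683-3084983, had log2 folds of 5.43, 5.00, 4.91 and 5.73 (mean 5.27 ± 0.38, SD, n = 4). The strongest downstream region, chr10:3124444-3125207, had 4.99, 4.89, 6.17 and 4.94 (mean 5.25 ± 0.62), with −log10 p of 32.1, 29.8, 39.9 and 23.1. These means differ by less than the spread between replicates. The remaining 4 downstream regions had means of 3.56 ± 0.18, 3.66 ± 0.18, 4.47 ± 1.06 and 3.70 ± 0.87 (SD, n = 4 for each). The PFKP peaks that passed both limits therefore lay at separate places along the gene.

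PFKL, on the plus strand of chromosome 21 from 44300053 to 44327373, had 30, 29, 29 and 27 called peaks and 2, 5, 2 and 3 enriched ones. Its median log2 fold was 1.81, 2.46, 1.74 and 2.00, and 91.2% ± 2.30 of its called peaks had a log2 fold above 0.5, against 31.4% ± 1.35 in the whole lists (SD, n = 4 for both). The elevation was spread along the gene. All 12 merged regions called in each replicate had a mean of at least 1.39, and 11 of them were above 0 in each replicate. The region enriched in all 4, chr21:44325560-44325716, lies 1735 nt from the 3′ end of the span. Its log2 folds were 3.50, 3.63, 3.88 and 3.23 (mean 3.56 ± 0.27, SD, n = 4). A −log10 p limit of 5 took the mean number of enriched PFKL peaks from 3 to 1.75, and a log2 fold limit of 1 took it to 4.75.

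PFKM, on the plus strand of chromosome 12 from 48105353 to 48146404, had 13, 25, 17 and 14 called peaks, the sparsest cover of the 10 genes at 0.420 per kb and replicate. The highest log2 fold among them was 1.59 and the highest −log10 p was 0.426. The medians were −0.000866, 0.00141, −0.58 and −0.000497, so that replicate 3 lay apart from the others. The span overlaps that of SENP1, and 4 peaks on the opposite strand, none of them enriched, were not counted.

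**Figure D3:**
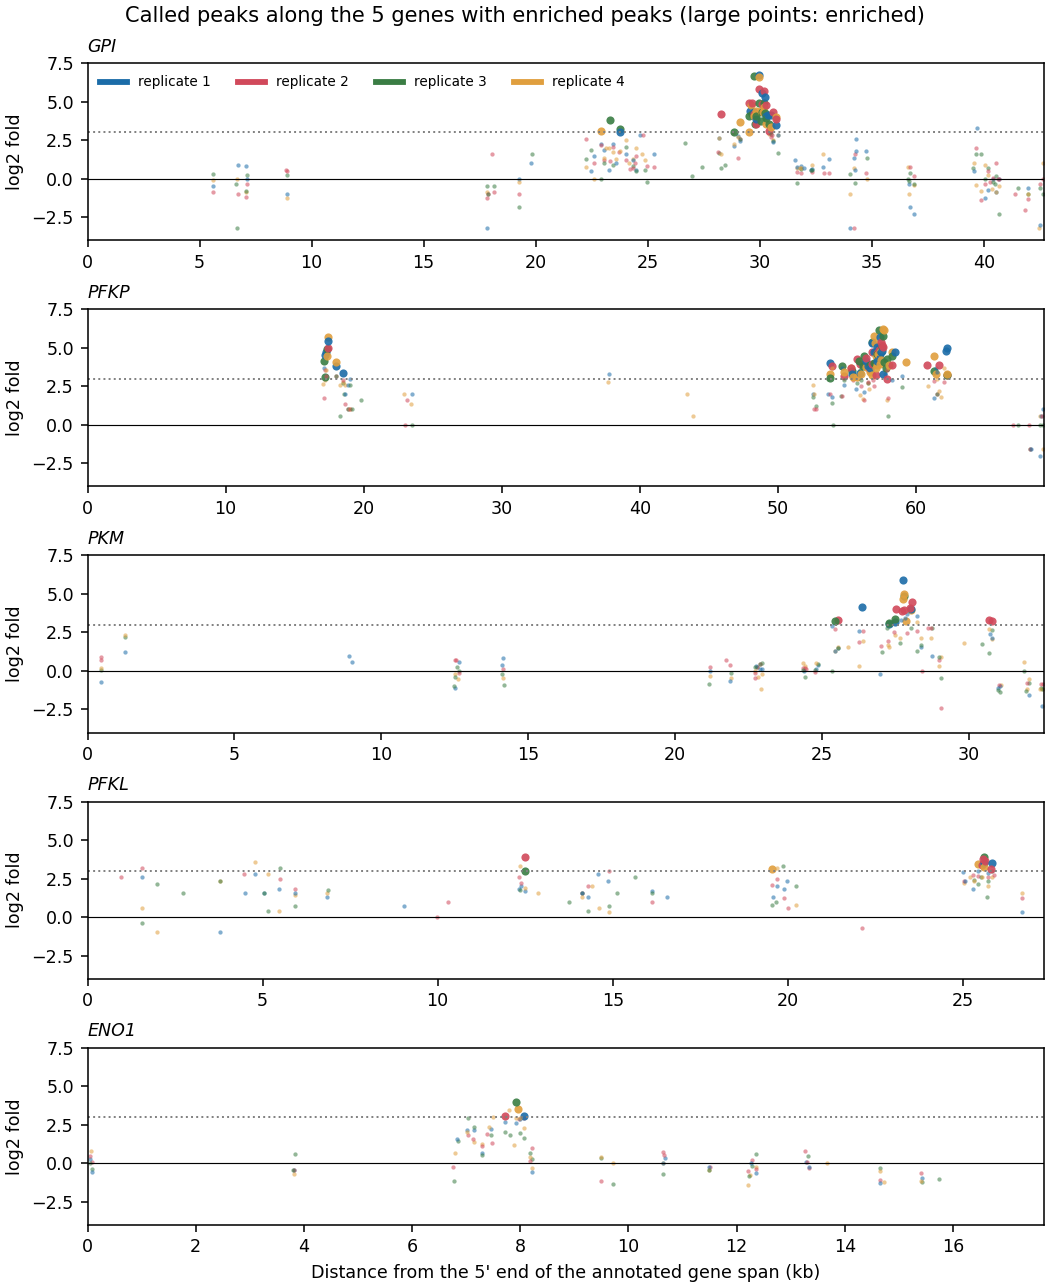
Each point is the midpoint of a called peak, plotted by its distance in kb from the 5′ end of the annotated span (x axis) and its log2 fold over input (y axis), with a colour per replicate, large points for enriched peaks and a dotted line at a log2 fold of 3. Enriched peaks form 1 main cluster in GPI, PKM and ENO1 and separate groups in PFKP, while PFKL is above 0 over most of its length.

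No peak in the middle of the pathway passed the limits. ALDOA, TPI1, GAPDH and PGK1 together had 239 called peaks summed over the lists, with none of them enriched. Over all called peaks the mean enriched share was only 0.818%. Of the 5256 genes with at least 10 called peaks in each replicate, 4438 had no enriched peak, so having none was the usual case. Their median log2 folds were below 0 in each replicate, apart from TPI1 in replicates 1 and 2. In replicate 1 the TPI1 median, −0.000866, equalled that of the whole list, and in replicate 2 it was above 0.

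GAPDH, on chromosome 12 from 6534517 to 6538371, had 13, 14, 12 and 11 called peaks. Its median log2 fold was −0.59, −0.74, −0.75 and −0.77, and not 1 of its 50 peaks was above 0.5. A log2 fold below −0.5 was found for 61.5%, 71.4%, 66.7% and 81.8% of the GAPDH peaks, against 23.1%, 23.5%, 24.3% and 23.4% of all called peaks. Of its 8 regions called in each replicate, 7 were below 0 in all 4, which holds for 5.61% of all such regions. By the median, GAPDH took rank 29 from the bottom of the 5256 genes.

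PGK1, on the X chromosome from 78104248 to 78129295, had 17, 21, 20 and 22 called peaks with medians of −0.22, −0.81, −0.74 and −0.34. ALDOA, on chromosome 16 from 30064279 to 30070420, had 15, 18, 21 and 17, with medians of −0.52, −0.66, −0.21 and −0.55. The replicate ranges of these medians overlap. Within ALDOA, a pair of neighbouring regions differed from the rest of the gene. The one at chr16:30069301-30069389 had log2 folds of 1.22, 1.39, 0.86 and 1.00, and the one at chr16:30069499-30069573 had 1.38, 1.12, 1.50 and 0.74, so both were above 0 in each replicate. The other 10 ALDOA regions had means between −0.99 and −0.12. ALDOA shares its span with LOC112694756, so its peaks could belong to either.

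TPI1, on chromosome 12 from 6867420 to 6870948, had 12, 10, 9 and 7 called peaks with medians of −0.000866, 0.15, −0.11 and −0.59. Its strongest region, chr12:6869109-6869176, had log2 folds of 1.17, 0.81, 2.81 and 0.32 (mean 1.28 ± 1.08, SD, n = 4). Replicate 3 stood highest there, and the −log10 p did not exceed 1.41 in any replicate.

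**Figure D4:**
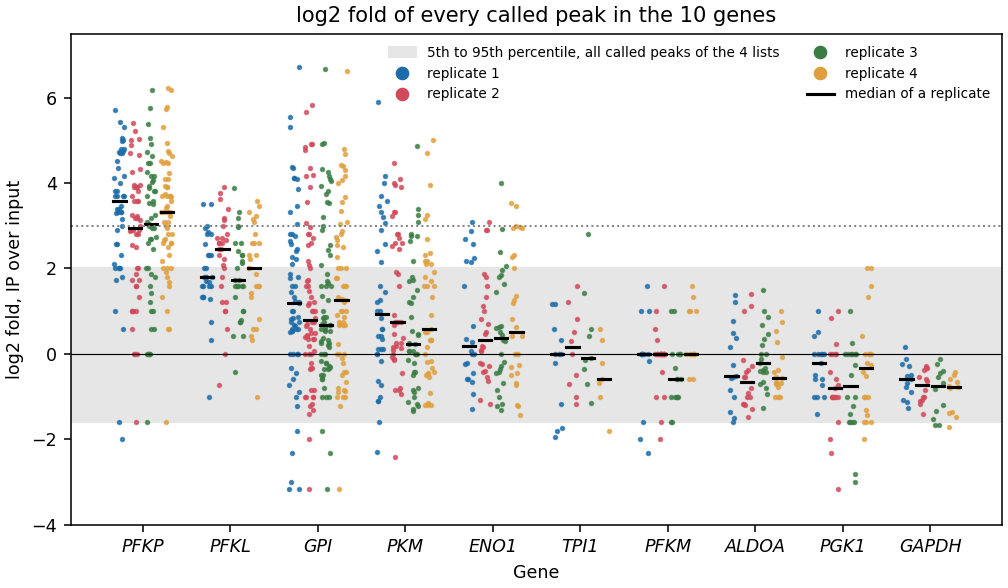
Each point is a called peak at its log2 fold over input (y axis), by gene (x axis) and replicate (colour), with black bars at the replicate medians. The grey band spans the 5th to 95th percentile of all called peaks, −1.58 to 2.00, and PFKP has most of its points above it while all GAPDH points lie between −1.70 and 0.15.

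At the end of the pathway, ENO1 and PKM each held their enriched peaks in a limited stretch. ENO1, the enolase found in most tissues, lies on the minus strand of chromosome 1 from 8861000 to 8878686. It had 22, 26, 28 and 28 called peaks and 1 enriched peak in each replicate. All 4 enriched peaks lay between 7714 and 8073 nt from the 5′ end of the span, but did not all overlap. When enriched peaks alone were merged, no ENO1 region was enriched in more than 2 replicates.

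The strongest ENO1 region, chr1:8870575-8870833, had log2 folds of 2.87, 2.89, 4.00 and 3.52 (mean 3.32 ± 0.54, SD, n = 4). It was merged from all called peaks, and held an enriched peak in replicates 1, 3 and 4 but none in replicate 2. Its neighbour at chr1:8870926-8871016 had 2.70, 3.09, 2.05 and 2.97 (mean 2.70 ± 0.46). Several peaks here fell just short of the limit, such as one of replicate 4 at 2.97 with a −log10 p of 7.40. With a log2 fold limit of 1, the mean count of enriched ENO1 peaks rose from 1 to 5.75. A further region 5′ of them, chr1:8871494-8871721, had a mean of 2.22 ± 0.49. The 6 regions 3′ of the strongest one had means between −0.996 and 0.371.

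PKM, on the minus strand of chromosome 15 from 72199029 to 72231591, had 38, 42, 43 and 41 called peaks, with 5, 8, 4 and 4 enriched. Of the 21 enriched peaks, 17 had their midpoint within a window of 2000 nt that was placed where it held the most. All 21 lay in the 3′ part of the gene, between 25447 and 30786 nt from the 5′ end of a span of 32563 nt. The strongest region, chr15:72203674-72203877, was enriched in all 4 replicates, with log2 folds of 5.91, 3.96, 4.88 and 5.00 (mean 4.93 ± 0.80, SD, n = 4). Its highest −log10 p per replicate was 16.3, 14.0, 22.3 and 16.2.

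A PKM region on its 3′ side, chr15:72203496-72203621, was enriched in 3 replicates and had a mean of 3.80 ± 0.72. One on its 5′ side, chr15:72204035-72204178, was also enriched in 3 and had 3.24 ± 0.68 (SD, n = 4 for both). A run extended as for GPI, while the mean log2 fold was at least 1, held 10 neighbouring regions of PKM. Their means lay between 1.36 and 4.93, and each was above 0 in every replicate. The one at chr15:72203173-72203242 stood at 0.00141 in replicate 2, the median of that list. Upstream of the run 8 regions lay between −0.23 and 0.33, and the last 2 regions of the gene lay at −1.02 and −1.36. A −log10 p limit of 5 took the mean count of enriched PKM peaks from 5.25 to 3.25. The exons near these regions are not given, since exon annotation was not used here.

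Ranked by the strongest region called in each replicate, the genes ran from GPI at 6.03 through PFKP, PKM, PFKL and ENO1 to TPI1, ALDOA, PFKM, PGK1 and GAPDH. The means of the first 5 were 6.03, 5.27, 4.93, 3.56 and 3.32. GPI was above the upstream PFKP region in 4 of 4 replicates, by 0.76 ± 0.53, though their ranges overlapped. In replicate 3 the strongest downstream region of PFKP, at 6.17, was above GPI, at 4.93. As length-weighted means over the peaks of each region, GPI stood at 4.40 ± 0.25, PKM at 4.33 ± 0.62 and PFKP at 4.29 ± 0.39 (SD, n = 4 for each), which differ by less than the spread between replicates, and PKM then ranks above PFKP. The ranges of PFKP and PKM also overlapped, as did those of PFKL and ENO1. Ranges did not overlap from PKM to PFKL, where PKM was higher in 4 of 4 replicates by 1.38 ± 0.90. Nor did they from ENO1 to TPI1, where the difference was 2.05 ± 0.85 (SD, n = 4 for each). As length-weighted means PFKL stood at 3.40 ± 0.25, ENO1 at 2.65 ± 0.26 and TPI1 at 1.28 ± 1.08. The strongest region was picked from unequal numbers, from 32 in GPI to 5 in PFKM, which favours genes with more regions. From TPI1 down to GAPDH the ranges of neighbours overlapped.

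**Figure D5:**
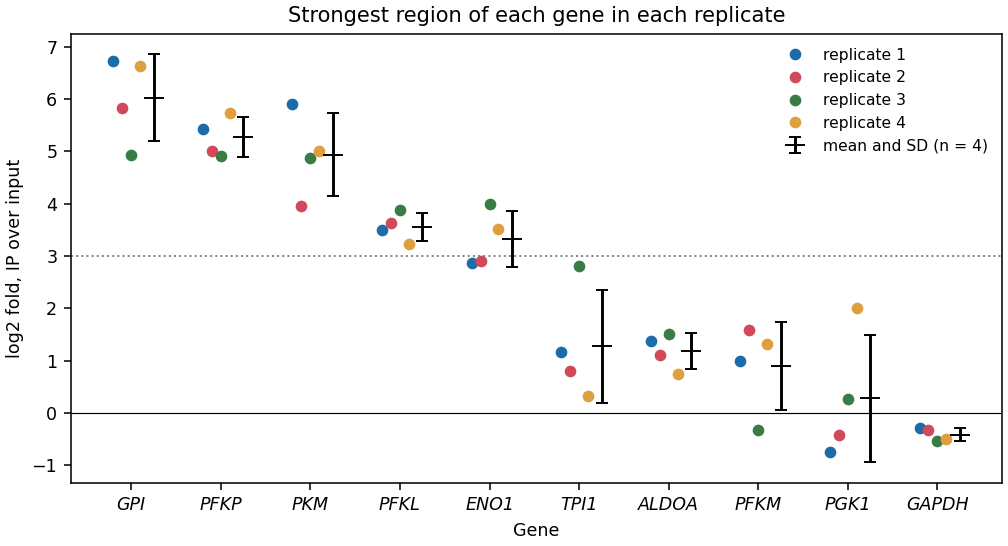
The plot shows the log2 fold over input (y axis) of the strongest region of each gene (x axis), with a coloured point per replicate and the mean with its SD (n = 4) in black. GPI, PFKP and PKM lie at 3.96 or above in each replicate, and the lowest of the 4 values is under 1 in TPI1 and in each gene to its right.

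Across the 10 genes, 138 merged regions had a called peak in all 4 replicates. Of these, 23 had a mean log2 fold of 3 or more, with 15 in PFKP, 3 in PKM, 2 each in GPI and PFKL, and 1 in ENO1. The same held for 3.18% of the 49493 such regions in the series. Of the 138, 66 were above 0 in each replicate and 24 were below 0 in each. Of the 49493 in the series, 16860 were above 0 in each replicate and 2779 (5.61%) were below 0 in each. A value at the median of its list counts as above 0 in replicates 2 and 3 (0.00141 and 0.000771). It counts as below 0 in replicates 1 and 4 (−0.000866 and −0.000497). The median SD between replicates was 0.62 over the 138 regions and 0.82 over all regions. Among regions with a mean log2 fold of 3 or more the order was the other way, with 0.72 over the 23 of the 10 genes and 0.66 over the 1574 of the series. Spearman's rho of the log2 fold between replicates lay between 0.783 and 0.826 over the 6 pairs, and between 0.463 and 0.477 over all 49493. This is a description across regions, which are not independent, and the folds of the 10 genes cover a wide range.

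The 190 enriched peaks merged into 56 regions, of which 30 were enriched in 1 replicate, 10 in 2, 7 in 3 and 9 in all 4. The share in all 4 was 16.1%, beside 16.4% for all 3371 enriched regions of the series. The 9 were 6 regions of PFKP and 1 each of GPI, PFKL and PKM. Taken pair by pair, a mean of 71.8% ± 3.29 (SD, n = 4) of the enriched peaks of a replicate overlapped an enriched peak of 1 other replicate. Neighbouring peaks of the same stretch count separately in this figure. It was not computed for the whole series, so it has no background to be set against. No enriched peak lay in the first or the last kb of its gene span. The share of called peaks in these stretches was not computed, so this count has no background either. The enriched peaks had median lengths of 92 nt in GPI, 73 in PFKP, 84 in PKM, 100.5 in PFKL and 65 in ENO1, against 49 to 58 nt for all called peaks of these genes.

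Some peaks lay close to the limits. Just inside the limit on the log2 fold were a PFKL peak and a GPI peak of replicate 3, both at 3.0008, and just outside were ENO1 peaks of replicate 4 at 2.9995 and 2.97 and a PFKL peak of replicate 3 at 2.97. Just inside the limit on the −log10 p were PFKP peaks at 3.01, and just outside were PFKP peaks at 2.74. In all, 32 peaks of the 10 genes passed on the fold alone and 65 on the −log10 p alone.

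Some of these genes have near-copies in the genome that can share reads, and how the authors treated such reads is not given in the sources used here. RefSeq lists 65 numbered pseudogenes of GAPDH, and 43 called peaks of the 4 lists lay in 14 of them. The single ENO1 pseudogene with called peaks held 24, and those of TPI1, PGK1, PKM and ALDOA held 17, 14, 12 and 7. None of these peaks was enriched. For GPI and the phosphofructokinase genes RefSeq lists no pseudogene of this naming. Values for GAPDH, TPI1, PGK1, ENO1, ALDOA and PKM are therefore less certain where reads could be split.

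The genes whose pattern was most like GPI were sought among 236 other genes with a merged region that was called and enriched in all 4 replicates. Likeness was the root mean squared difference in log2 fold from the strongest GPI region over the 4 replicates. The nearest was HDAC4, a class IIa histone deacetylase, at a difference of 0.32, with log2 folds of 6.66, 5.48, 5.46 and 6.61. It was followed by DIP2C at 0.48, C1orf159 at 0.53, and GNAL and NXN at 0.54 each. By the mean of its strongest region GPI took rank 13 of the 240 genes, PFKP rank 43, PKM rank 66 and PFKL rank 225.

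Other genes around the pathway were read from a list of 58, covering further glycolytic enzymes and isozymes, regulators, lactate and sugar handling, gluconeogenesis, pyruvate entry and the pentose phosphate branch. Of these, 50 had a strand in the RefSeq table and were used. Called peaks were found in 35 of them and regions called in each replicate in 28. Enriched peaks fell in 3 genes, with 1 each in PFKFB4 and LDHB and 2 in TKT, and no region of any of them was enriched in 2 replicates.

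The rule for the 10 genes did not use the values of these, though the list was drawn up with earlier results of the series known. Their regions were tested against a mean log2 fold of 0 with limma across all 49493 regions. The value of a region leans upward, in the list and in the series alike. It is that of the peak with the highest −log10 p, and peaks below input, such as those of GAPDH, had a −log10 p of 0. A length-weighted mean was not fitted. Of their 132 regions, 15 were higher and 1 was lower at a Benjamini-Hochberg adjusted p of at most 0.05, or 11.4% and 0.758%. Among all regions 21.1% were higher and 1.81% lower, so neither share of the list was above the background. The median of the mean log2 fold was 0.15 over the 132 regions and 0.50 over all. Without replicate 1, 2 or 4 no region of the list passed, with 29, 31 and 26 at an unadjusted p under 0.05, and without replicate 3 the counts were 3 and 1.

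Of the further glycolytic enzymes tested, ENO2 was the only one with regions past the threshold. Both tested regions of ENO2, the neuronal enolase, were higher in limma, and the one at chr12:6915247-6915446 had log2 folds of 2.70, 3.17, 3.17 and 3.32 (mean 3.09, SE 0.24, limma adjusted p = 0.00442). The other, chr12:6914768-6915246, had 3.32, 3.59, 2.42 and 1.81 (mean 2.78, SE 0.38, limma adjusted p = 0.0101). No ENO2 peak passed both limits for enrichment. The 3 tested regions of ENO3, the muscle enolase, did not pass in either direction.

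TKT, the transketolase of the pentose phosphate branch, had 6 higher regions of 15. The strongest, chr3:53244163-53244235, had 2.58, 2.00, 3.32 and 2.81 (mean 2.68, SE 0.30, limma adjusted p = 0.00685). PFKFB3 and PFKFB4 make enzymes that set the level of fructose 2,6-bisphosphate, the activator of phosphofructokinase. The only tested region of PFKFB4 had a mean of 2.96 (SE 0.37, limma adjusted p = 0.00828), and 2 of 32 regions of PFKFB3 were higher, the stronger with a mean of 2.35 (SE 0.34, limma adjusted p = 0.0109).

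One of 11 regions of LDHB, a lactate dehydrogenase subunit, was higher at 2.74 (SE 0.36, limma adjusted p = 0.00944). PDHA1 and PDHX, subunits of the pyruvate dehydrogenase complex, had 2 of 7 and 1 of 3 higher regions. The lower region was in PGD, an oxidative enzyme of the pentose phosphate branch, at chr1:10399624-10399664, with −1.59, −1.58, −0.81 and −1.59 (mean −1.39, SE 0.26, limma adjusted p = 0.0220). No region of the hexokinases HK1 and HK2, of PGAM1 or of LDHA passed in either direction. The 11 regions named by size of effect kept their sign without any 1 replicate, and all 11 lost the adjusted threshold without replicate 1, 2 or 4.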

How the data were processed

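RBFOX2 eCLIP peaks of 4 IP libraries were used, each compared by the authors with its own input. UMI-tools 1.1.1, cutadapt 3.2, STAR 2.7.7a and the builds hg38 and GRCh38.p13 are named in the submitters' processing notes. The peak caller, the test and the scaling are not given in the sources used here. The deposited lists have no header, so units were read from the values: column 4 as the authors' −log10 p, which stops at 400, and column 5 as the authors' log2 fold of IP over input. The −log10 values are deposited p-values, and whether they were adjusted is not stated.

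Gene spans came from RefSeq GRCh38.p14 and gene strands from its promoter table. Coordinates are 1-based on hg38 as deposited. Spans carry no exons, so exon positions were not used. Peaks were merged by an overlap of at least 1 nt on 1 strand, and a region's value in a replicate was that of the peak with the smallest p-value there. Enriched regions were merged from enriched peaks alone. Regions called in each replicate, among them the strongest regions, were merged from all called peaks. Member values are described, not tested. Other pathway genes were tested with limma 3.58.1 in R 4.3.3 (intercept only, eBayes, two-sided, Benjamini-Hochberg over all regions, threshold 0.05). The limma script was tested on simulated data, where 200 regions were given a log2 fold of 2 to 5. It found 87% of them when the moderated spread was assumed and 35.5% when the raw spread was assumed. All other regions of the 49493 were simulated at 0, whereas in the real fit 21.1% passed as higher and 1.81% as lower. The adjusted threshold depends on that share, so these rates do not give the recovery in the real fit. A region that did not pass may still differ from 0.

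The members and lists were chosen with earlier results of these data known. Named are all 10 members, the tested regions of other pathway genes with the largest mean log2 fold in each direction (up to 10), the 5 genes nearest to GPI, and genes with counts of enriched or tested regions. Of the 58 listed genes, 8 had no strand in the table and were not analysed here. Alternatives were other limits on fold and p, gene assignment, strand, the value of a region, the null of limma, and leaving out each replicate. The planned search for GCATG was not run, since no genome sequence was used here. Python 3.11.15, numpy 2.4.6, pandas 2.3.3 and matplotlib 3.10.9 were used.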

Additional observations from a re-analysis of the deposited data

Results flagged for a closer look

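Of 40 sets of 4 replicate values, 2 had a replicate far from the other 3. The sets were called peaks, enriched peaks, median log2 fold and the strongest region of each gene. Chance gives about 1 in 20 where values vary freely. Sets of equal values, such as enriched counts all at 0, could not be flagged. The median log2 fold of called peaks in PFKM was −0.58 in replicate 3, while the other replicates lay between −0.000866 and 0.00141. Those other medians equalled the medians of their whole lists. The median log2 fold of called peaks in GAPDH was −0.59 in replicate 1, above the other 3, which lay between −0.77 and −0.74. Neither gene had an enriched peak in any replicate.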

How the results depend on the processing

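The mean of 47.5 enriched peaks in the 10 genes, the 9 regions enriched in all 4 replicates and the 5 genes with an enriched peak in at least 2 replicates stayed within 1.5 times under the alternatives run, except that a log2 fold limit of 1 gave 18 such regions. Leaving out a replicate gave between 45.7 and 48.7 peaks, between 10 and 12 regions shared by the remaining 3, and 5 genes. The mean log2 fold of the strongest GPI region, 6.03, lay between 5.80 and 6.39 when a replicate was left out and was 4.40 as a length-weighted mean over its peaks. For the other pathway genes, limma called 15 regions higher and 1 lower. Leaving out a replicate gave between 0 and 3 higher and between 0 and 1 lower, with the lowest adjusted p between 0.0487 and 0.0517. These fits have 1 sample fewer. Against a log2 fold of 1 there were 5 higher and 0 lower, with 10 at an unadjusted p under 0.05, and with a trend in eBayes 2 were lower. The mean log2 fold of the strongest PGK1 region, 0.28 ± 1.22 (SD, n = 4), was −0.30 without replicate 4, and no other value changed sign. No paired analysis was possible because every list is a ratio of an IP to its input, and inputs were not given as separate values. What could not be run is a fit of IP and input as separate samples with the replicate number as a block. The pairing is already in every value, since each ratio sets an IP against the input of the same number. The limma fits of these ratios therefore used it. The search for GCATG was not run. Read depth is unknown, so its effect on low folds could not be assessed.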
